A study of Homo sapiens with 9 samples.

Results

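The genes described here carry glucose into the cell, split it to pyruvate, turn pyruvate into lactate or pass it to mitochondria, and link glucose 6-phosphate to glycogen and to the pentose phosphate pathway. They were taken by gene symbol, a rule that uses no measured value, as a module of 36 out of 36810 genes in the table; the module itself was drawn up with earlier results of these data known. All 36 had at least 1 FPKM (fragments scaled to gene length and library depth) in at least 3 of the 9 libraries and entered the test, as did 13657 genes in all. By role the module held 2 glucose transporters, 9 genes of hexose phosphorylation and upper glycolysis, 3 genes that set fructose 2,6-bisphosphate, 6 of lower glycolysis, 4 of lactate formation and export, 8 of pyruvate entry into mitochondria, and 4 of the glycogen link and the pentose phosphate pathway.

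RNA was measured in 143B, an established human osteosarcoma line, in 9 libraries of polyadenylated RNA. Of these, 3 came from control cells at 0 h, 3 from cells given 0.5 µM XD23 for 24 h and 3 from cells given 0.5 µM XD23 for 48 h; all were grown in RPMI-1640 with serum. The labels give XD23 as a code name only. The labels name neither a vehicle nor untreated cells at 24 h or 48 h, so the compound and the time in culture cannot be told apart. Whether the 3 libraries per group stem from separate cultures is not said, and the p-values measure only how much these libraries vary.

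Glycolysis converts glucose to pyruvate in the cytosol and yields ATP and NADH without oxygen. Its pace is set mainly at glucose uptake, at hexokinase and at phosphofructokinase, the last of which is driven by fructose 2,6-bisphosphate. Many tumour cells, osteosarcoma cells among them, reduce much of the pyruvate to lactate even when oxygen is present, while pyruvate dehydrogenase, held in check by its kinases, admits the rest to the citric acid cycle.

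The libraries held 18341542 to 22901830 fragments, and between 27.3% and 29.5% of all FPKM came from the mitochondrial genome. The third 24 h library stood apart, at -24.7 on the second principal component against -6.96 to 9.06 for the other 8, and it was the highest of its group for 21 members and the lowest for 10. Of 12 osteosarcoma and mesenchymal markers 7 lay above 1 FPKM in some library, among them VIM, CD44, SPARC and RUNX2, while the bone genes COL1A1, COL1A2, ALPL and BGLAP averaged under 1 FPKM in each group. The mesenchymal list summed to 422 to 430 FPKM at 0 h, 426 to 517 FPKM at 24 h and 451 to 481 FPKM at 48 h. That sum is mostly VIM, which averaged 357 FPKM at 48 h of XD23 and 304 FPKM in control and was not called (adjusted p = 0.0935), while SPP1, SPARC, RUNX2 and CDH2 fell and 0 of the 7 tested markers rose, with a median log2 fold change of -0.14 at 48 h against control. Of 6 epithelial markers 3 lay above 1 FPKM (KRT18, KRT8 and EPCAM), and that list summed to 185 to 193 FPKM at 0 h, 188 to 214 FPKM at 24 h and 140 to 154 FPKM at 48 h; all 3 fell at 48 h against control. No marker of blood, endothelial or neural cells reached 1 FPKM in any library. The part of these marker shifts in the results below was not tested.

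At 48 h of XD23 the module moved mainly upward against control. Of the 36 members 17 rose, 2 fell and 17 did not pass the test (limma on log2(FPKM + 1), two-sided, Benjamini-Hochberg adjusted p under 0.05 over all genes tested). Among all 13657 genes 13.3% were called higher and 15.2% lower, against 47.2% and 5.56% of the members. The median log2 fold change of the members was 0.10, beside -0.02 over all genes tested. Every 48 h value lay above every control value for 20 members, where 22.7% of all genes did so, and below for 9 members, where 27.7% did so. At an unadjusted p under 0.05 there were 26 members, beside 40.1% of all genes. The rise was widest in glucose uptake (both genes), upper glycolysis (6 of 9) and fructose 2,6-bisphosphate control (2 of 3), and SLC16A1 and PDHA1 were the members that fell. In bulk RNA, a change in the number of cells that express a gene and a change in the RNA per cell cannot be told apart. With median-of-ratios scaling the split of all called genes was 2156 higher and 1617 lower, against 1811 higher and 2080 lower as deposited, and that of the members was 18 higher and 1 lower. At 24 h of XD23 no member was called in either direction.

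**Figure D1:**
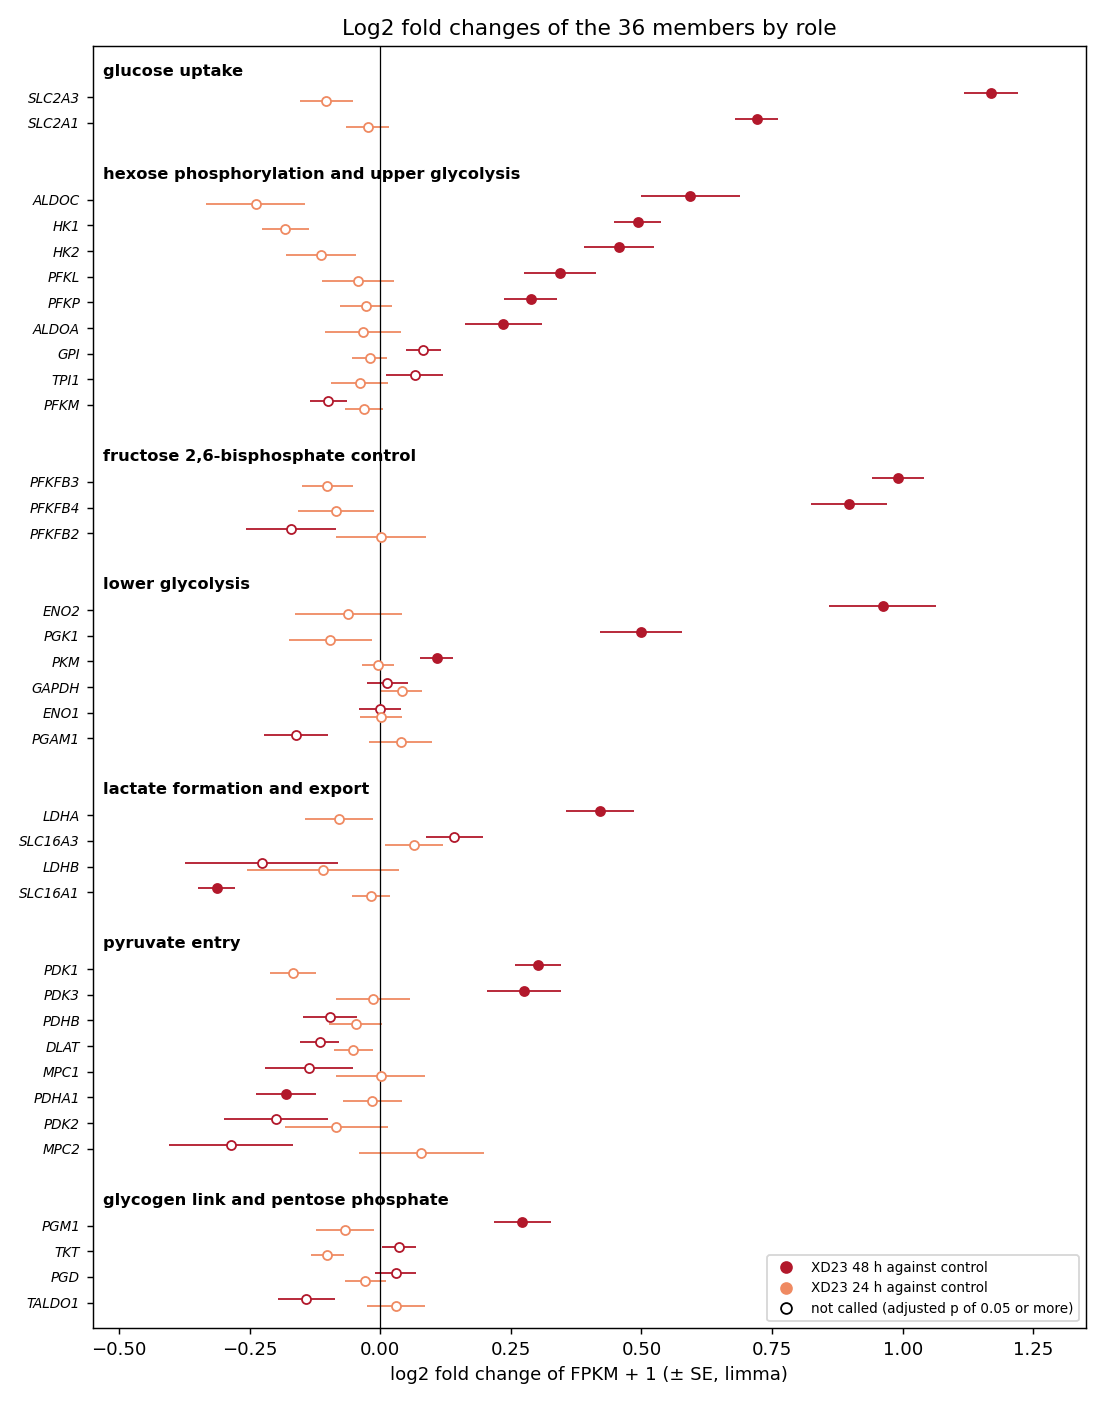
Log2 fold change of FPKM + 1 (x axis, ± SE from limma) of each of the 36 members, grouped by role, for XD23 48 h against control (red) and XD23 24 h against control (orange); filled points were called. The 48 h points reach from -0.31 (SLC16A1) to 1.17 (SLC2A3), while the 24 h points stay between -0.24 and 0.08, and none of those is filled.

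The members with the highest fold changes at 48 h were SLC2A3, PFKFB3, ENO2 and PFKFB4. RefSeq promoters of 250 bases before to 50 bases after a start site (build GRCh38.p14) were at hand for 33 of the 36 members, with 65 start sites among them; those of ENO2, PFKFB3 and PFKFB4 are printed here because these genes changed most. SLC2A3 had no promoter among those at hand and is named only. Capitals mark ACGTG, the core letters read by hypoxia-inducible factors, and CACGTG, the E-box read by MYC and by MondoA/MLX and similar factors; CACGTG contains ACGTG on each strand. Both strands were searched, and the sequences are given 5′ to 3′ on the strand of the gene.

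ENO2, chr12:6914330-6914629, plus strand: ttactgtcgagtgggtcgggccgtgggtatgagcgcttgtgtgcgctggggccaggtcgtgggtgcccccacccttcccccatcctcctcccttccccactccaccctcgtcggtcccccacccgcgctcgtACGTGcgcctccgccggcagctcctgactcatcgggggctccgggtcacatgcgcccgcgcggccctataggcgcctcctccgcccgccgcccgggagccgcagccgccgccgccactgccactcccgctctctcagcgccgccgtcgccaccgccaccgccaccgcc

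PFKFB3, chr10:6202682-6202981, plus strand: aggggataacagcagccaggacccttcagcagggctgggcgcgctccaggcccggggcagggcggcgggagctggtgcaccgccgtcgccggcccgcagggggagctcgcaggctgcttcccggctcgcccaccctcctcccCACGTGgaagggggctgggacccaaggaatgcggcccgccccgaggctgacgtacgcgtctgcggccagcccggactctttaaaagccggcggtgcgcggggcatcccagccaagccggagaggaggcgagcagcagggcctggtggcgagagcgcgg

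PFKFB3, second start site, chr10:6144671-6144970, plus strand: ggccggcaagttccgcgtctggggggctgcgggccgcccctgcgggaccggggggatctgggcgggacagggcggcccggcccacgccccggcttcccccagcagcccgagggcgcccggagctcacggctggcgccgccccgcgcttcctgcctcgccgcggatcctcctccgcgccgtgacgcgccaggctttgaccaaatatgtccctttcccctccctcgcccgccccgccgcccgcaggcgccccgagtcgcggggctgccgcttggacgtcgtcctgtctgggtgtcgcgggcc

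PFKFB4, chr3:48556754-48557053, minus strand: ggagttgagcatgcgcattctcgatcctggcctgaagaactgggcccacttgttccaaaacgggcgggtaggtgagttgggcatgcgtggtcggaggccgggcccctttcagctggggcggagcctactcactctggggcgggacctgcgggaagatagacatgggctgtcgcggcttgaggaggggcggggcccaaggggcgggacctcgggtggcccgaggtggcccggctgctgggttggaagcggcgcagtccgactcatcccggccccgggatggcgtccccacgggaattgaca

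The ENO2 promoter held ACGTG with its first base at -118 from the start site. Upstream of one PFKFB3 start site lay CACGTG with its first base at -108, whereas the other PFKFB3 promoter and that of PFKFB4 held neither motif in these windows. Over the 65 member promoters 36.9% held ACGTG, against 21.4% of the 35116 promoters in the table, and 12.3% held CACGTG, against 7.26%. The GC-box letters GGGCGG, read by SP1, stood in 70.8% of member promoters and in 45% of all promoters. In promoters of members called higher at 48 h, ACGTG stood in 42.4%, CACGTG in 15.2% and GGGCGG in 66.7%. In promoters of members not called higher the shares were 31.2%, 9.38% and 75%, and the differences were not tested. Several members have more than 1 start site, so these promoters are not independent of each other. These are matches of letters in a window and carry no measure of binding.

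Both glucose transporters rose. SLC2A3 (GLUT3, chr12:7919230-7936275, minus strand, ENSG00000059804), a high-affinity transporter, stood at 11.0, 10.0 and 10.5 FPKM at 0 h, 9.61, 9.51 and 10.0 FPKM at 24 h and 23.4, 26.1 and 25.1 FPKM at 48 h. The 48 h libraries lay well above the other 6, and control and 24 h values overlapped. At 48 h of XD23 its mean was 2.37 times that of control (log2 fold change 1.17 ± 0.05, adjusted p = 8.12e-06). SLC2A1 (GLUT1, chr1:42925375-42959176, minus strand, ENSG00000117394), the transporter of basal glucose uptake in most cells, measured 8.09, 8.38 and 8.02 FPKM at 0 h, 8.00, 7.89 and 8.15 FPKM at 24 h and 14.7, 14.1 and 13.6 FPKM at 48 h. Again the 48 h group alone stood apart, with 1.73 times the control mean (log2 fold change 0.72 ± 0.04, adjusted p = 2.87e-05). The 2 transporters together summed to 39.0 ± 1.07 FPKM at 48 h of XD23 and 18.7 ± 0.382 FPKM in control (SD, n = 3 each).

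In upper glycolysis 6 of 9 genes rose and none fell. HK1 (chr10:69269984-69401884, plus strand, ENSG00000156515), the hexokinase found in most tissues, traps glucose as glucose 6-phosphate. Its values were 37.6, 36.9 and 36.9 FPKM at 0 h, 34.6, 32.5 and 30.8 FPKM at 24 h and 51.4, 54.2 and 52.5 FPKM at 48 h. All 48 h libraries exceeded all others, and the 24 h libraries lay below the control libraries (log2 fold change 0.49 ± 0.04, adjusted p = 0.000168 for 48 h against control). HK2 (chr2:74833981-74893359, plus strand, ENSG00000159399), the hexokinase of muscle, fat and many tumours, gave 23.0, 22.9 and 21.0 FPKM at 0 h, 22.2, 20.9 and 18.5 FPKM at 24 h and 32.1, 30.9 and 29.8 FPKM at 48 h. Here too the 48 h group was clear of the others, and 24 h and control overlapped (log2 fold change 0.46 ± 0.07, adjusted p = 0.00147).

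Phosphofructokinase commits the sugar to glycolysis and has 3 isoforms in the module. PFKL (chr21:44300051-44327376, plus strand, ENSG00000141959), the liver form, measured 9.27, 9.51 and 10.5 FPKM at 0 h, 10.0, 9.90 and 8.45 FPKM at 24 h and 12.1, 13.0 and 12.9 FPKM at 48 h. PFKP, the platelet form, measured 28.0, 27.8 and 28.6 FPKM at 0 h, 29.3, 28.0 and 25.6 FPKM at 24 h and 33.4, 34.9 and 35.4 FPKM at 48 h. Both were higher in every 48 h library than in any other library (log2 fold change 0.34 ± 0.07, adjusted p = 0.0068 for PFKL and log2 fold change 0.29 ± 0.05, adjusted p = 0.0036 for PFKP, 48 h against control). PFKM, the muscle form, did not pass the test, with 14.9 to 15.6 FPKM at 48 h of XD23 and 15.8 to 16.7 FPKM in control (log2 fold change -0.10 ± 0.04, adjusted p = 0.0729).

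Aldolase splits fructose 1,6-bisphosphate. ALDOC (chr17:28573115-28577264, minus strand, ENSG00000109107), the brain form, stood at 2.30, 2.09 and 2.05 FPKM at 0 h, 1.98, 1.36 and 1.69 FPKM at 24 h and 3.36, 4.10 and 3.81 FPKM at 48 h, on 77 to 245 fragments a library. The 48 h values were the highest and the 24 h values lay under the control values (log2 fold change 0.59 ± 0.10, adjusted p = 0.00227). ALDOA, the muscle form and the main aldolase of most cells, read 2.10, 2.04 and 1.81 FPKM at 0 h, 1.75, 1.82 and 2.18 FPKM at 24 h and 2.58, 2.51 and 2.43 FPKM at 48 h, on 127 to 223 fragments. Its 48 h libraries lay above the others, and the call was near the threshold (log2 fold change 0.24 ± 0.07, adjusted p = 0.0406); it was lost under 9 of 18 alternatives. In GENCODE 29, 53.5% of the exon bases of ALDOA are shared with other genes, chiefly AC093512.2 on the same strand, which averaged 0.357 FPKM at 48 h of XD23 and 0.290 FPKM in control. What that sharing did to the level of ALDOA was not tested. GPI, which turns glucose 6-phosphate into fructose 6-phosphate, had 18.2 to 19.0 FPKM at 48 h of XD23 and 17.4 to 17.8 FPKM in control (log2 fold change 0.08 ± 0.03, adjusted p = 0.102). TPI1, which interconverts the triose phosphates, had 171 to 181 FPKM at 48 h of XD23 and 159 to 173 FPKM in control (log2 fold change 0.07 ± 0.06, adjusted p = 0.416). Neither passed the test.

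The bifunctional enzymes that make and break fructose 2,6-bisphosphate split into risers and a non-riser. PFKFB3 (chr10:6144934-6254644, plus strand, ENSG00000170525), the form with the strongest kinase side, measured 6.57, 6.96 and 6.74 FPKM at 0 h, 6.52, 6.38 and 5.81 FPKM at 24 h and 13.9, 14.8 and 14.5 FPKM at 48 h. The 48 h libraries were 2.13 times the control mean and the 24 h libraries lay just under the control range (log2 fold change 0.99 ± 0.05, adjusted p = 1.38e-05 for 48 h against control). PFKFB4 (chr3:48517684-48562015, minus strand, ENSG00000114268), a form best known from testis and tumours, stood at 1.71, 1.57 and 1.80 FPKM at 0 h, 1.67, 1.54 and 1.43 FPKM at 24 h and 3.84, 4.47 and 3.77 FPKM at 48 h, on 191 to 625 fragments. It reached 2.38 times the control mean with no overlap between 48 h and the other groups (log2 fold change 0.90 ± 0.07, adjusted p = 0.000104). The neighbouring UCN2 shares 289 exon bases with PFKFB4 on the same strand, and UCN2 had a log2 fold change of 0.33 (adjusted p = 0.0277); its part was not tested. PFKFB2, the heart form, did not pass the test, at 1.74 to 2.05 FPKM at 48 h of XD23 and 2.17 to 2.45 FPKM in control (log2 fold change -0.17 ± 0.09, adjusted p = 0.177).

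In lower glycolysis 3 of 6 genes rose, and the 2 most abundant members, GAPDH and ENO1, did not pass the test. ENO2 (chr12:6913745-6923698, plus strand, ENSG00000111674), the enolase of neurons that many tumours also express, measured 7.43, 6.57 and 7.16 FPKM at 0 h, 6.94, 5.58 and 7.77 FPKM at 24 h and 13.5, 14.9 and 15.7 FPKM at 48 h. The 48 h values were 2.08 times the control mean, above all others (log2 fold change 0.96 ± 0.10, adjusted p = 0.000338). ENO1, the enolase of most tissues, read 564, 535 and 558 FPKM at 0 h, 549, 537 and 574 FPKM at 24 h and 552, 540.0 and 564 FPKM at 48 h. These groups overlapped throughout (log2 fold change 0.00 ± 0.04, adjusted p = 0.995). PGK1 (chrX:77910739-78129296, plus strand, ENSG00000102144), which makes the first ATP of the pathway, stood at 114, 103 and 114 FPKM at 0 h, 102, 92.9 and 116 FPKM at 24 h and 149, 162 and 157 FPKM at 48 h. Every 48 h library lay above the rest, and the third 24 h library was the highest of its group (log2 fold change 0.50 ± 0.08, adjusted p = 0.00215). PKM, pyruvate kinase, rose by little, with 217 to 226 FPKM at 48 h of XD23 and 206 to 208 FPKM in control (log2 fold change 0.11 ± 0.03, adjusted p = 0.0299); the call was lost under 7 of 19 alternatives. GAPDH, often used as a loading reference, ranged from 954 to 1015 FPKM at 48 h of XD23 and from 970 to 1004 FPKM in control (log2 fold change 0.01 ± 0.04, adjusted p = 0.83). PGAM1, which moves the phosphate of 3-phosphoglycerate, had 157 to 173 FPKM at 48 h of XD23 and 174 to 189 FPKM in control and did not pass the test (log2 fold change -0.16 ± 0.06, adjusted p = 0.081). ENO2 and TPI1 are next to each other among the members, 42796 bases apart on chromosome 12, and only ENO2 of the pair was called.

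**Figure D2:**
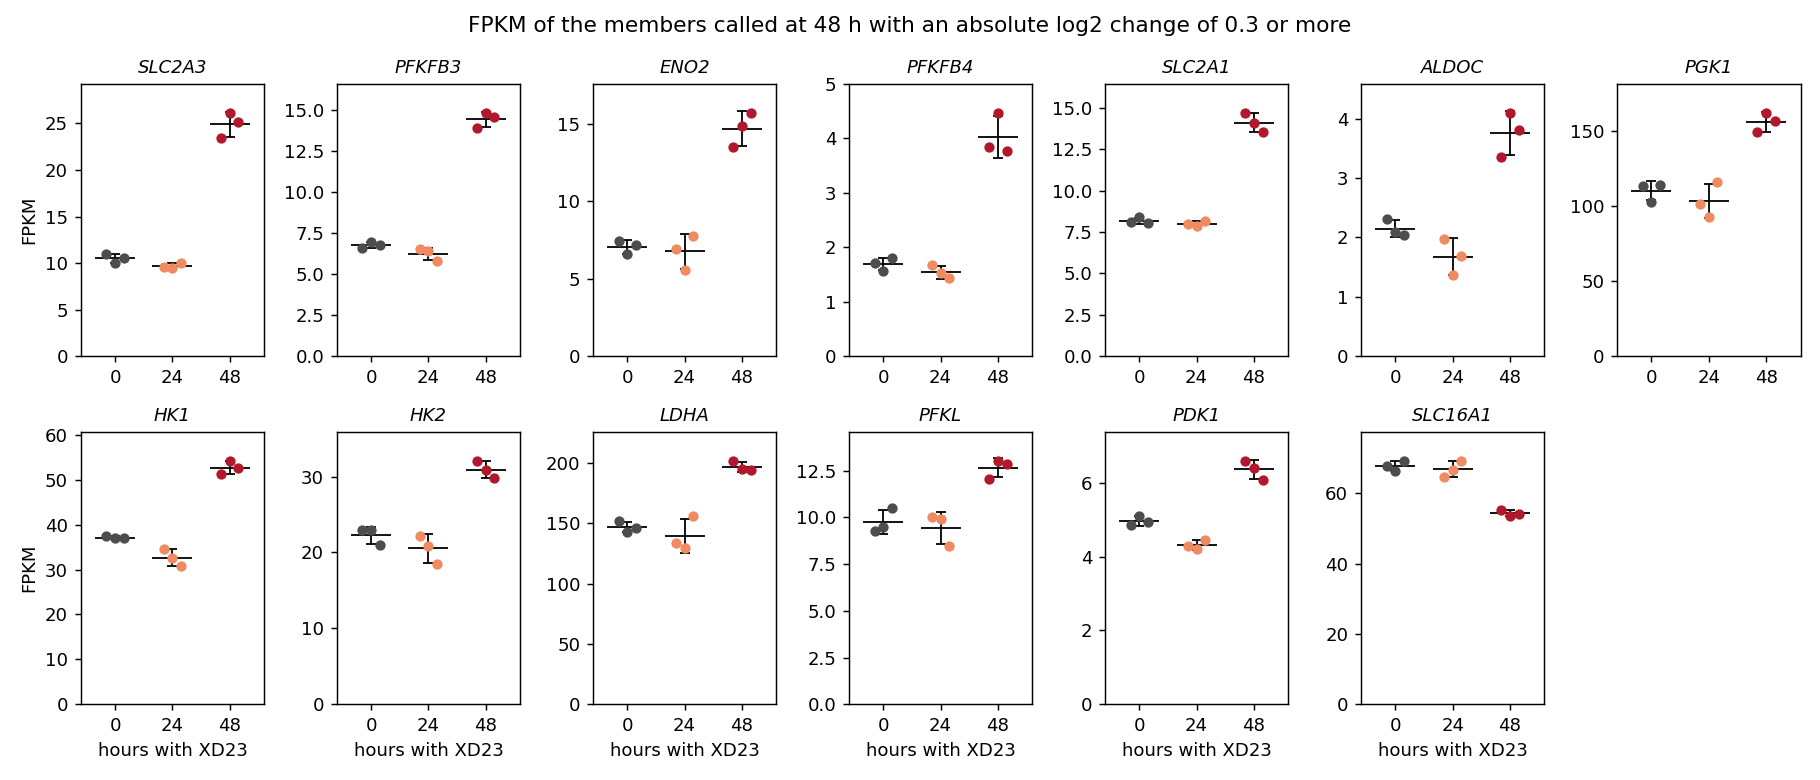
FPKM (y axis, from 0) in each library at 0 h (control), 24 h and 48 h of XD23 (x axis) for the 13 members called at 48 h with an absolute log2 fold change of at least 0.3; points are libraries, bars are the mean and SD of 3. In 12 panels the 48 h points lie above all others, and in SLC16A1 they lie below.

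Lactate genes went in different directions. LDHA (chr11:18394388-18408425, plus strand, ENSG00000134333), the lactate dehydrogenase subunit that favours lactate formation, measured 152, 143 and 146 FPKM at 0 h, 134, 129 and 156 FPKM at 24 h and 202, 195 and 194 FPKM at 48 h. The 48 h libraries were the highest, and the third 24 h library exceeded the control range (log2 fold change 0.42 ± 0.07, adjusted p = 0.00202). LDHB, the heart subunit, read 4.43, 3.86 and 4.75 FPKM at 0 h, 3.12, 3.64 and 5.32 FPKM at 24 h and 3.79, 3.16 and 3.75 FPKM at 48 h, on 193 to 348 fragments. Its 48 h values lay below the control values and overlapped with those at 24 h, and the test was not passed (log2 fold change -0.23 ± 0.15, adjusted p = 0.281 for 48 h against control). Of the exon bases of LDHB, 33.4% are shared with AC010197.2 on the same strand; what this did to its level was not tested. SLC16A1 (MCT1, chr1:112911847-112957013, minus strand, ENSG00000155380), a carrier of lactate and pyruvate, was at 67.6, 66.4 and 69.1 FPKM at 0 h, 64.8, 66.7 and 69.2 FPKM at 24 h and 55.3, 53.6 and 54.1 FPKM at 48 h. It was lower in each 48 h library than in any other (log2 fold change -0.31 ± 0.04, adjusted p = 0.000483). SLC16A3 (MCT4), the low-affinity lactate exporter, stood at 2.07, 2.02 and 2.07 FPKM at 0 h, 2.09, 2.36 and 2.12 FPKM at 24 h and 2.35, 2.42 and 2.34 FPKM at 48 h. Its 48 h range lay above control but the test was not passed (log2 fold change 0.14 ± 0.06, adjusted p = 0.0874); CSNK1D, which shares 482 exon bases with it on the opposite strand, had a log2 fold change of 0.21 (adjusted p = 0.0193), and its part was not tested.

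Of the 8 genes of pyruvate entry, 2 pyruvate dehydrogenase kinases rose and 1 subunit of the enzyme they inhibit fell. Beside these stand 13.3% called higher and 15.2% lower over all genes tested, and counts out of 8 cannot be told from such shares. PDK1 (chr2:172555373-172608669, plus strand, ENSG00000152256) measured 4.86, 5.11 and 4.93 FPKM at 0 h, 4.29, 4.20 and 4.46 FPKM at 24 h and 6.60, 6.41 and 6.08 FPKM at 48 h. The 48 h values were the highest and the 24 h values the lowest, with no overlap between any of the groups (log2 fold change 0.30 ± 0.04, adjusted p = 0.00146 for 48 h against control). AC078883.1, an antisense transcript, had a log2 fold change of 0.36 (adjusted p = 0.00448). It shares 445 exon bases with PDK1, 2.99% of the exon bases of PDK1. Without strand information, reads on these shared bases cannot be told apart, and their part was not tested. PDK3 stood at 1.77, 1.84 and 1.80 FPKM at 0 h, 1.85, 1.94 and 1.57 FPKM at 24 h and 2.27, 2.59 and 2.33 FPKM at 48 h. All 48 h libraries lay above the other groups (log2 fold change 0.28 ± 0.07, adjusted p = 0.0199), though the call was lost under 4 of 18 alternatives. PDK2, at 0.678 to 0.988 FPKM at 48 h of XD23 and 0.975 to 1.16 FPKM in control, did not pass the test (log2 fold change -0.20 ± 0.10, adjusted p = 0.171), and 38.6% of its exon bases are shared with other genes.

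PDHA1, the catalytic subunit of pyruvate dehydrogenase, ranged from 14.5 to 17.0 FPKM at 48 h of XD23 and from 17.2 to 18.6 FPKM in control (log2 fold change -0.18 ± 0.06, adjusted p = 0.0435). Its call was lost under 13 of 19 alternatives. Of the other subunits, PDHB had 16.4 to 18.2 FPKM at 48 h of XD23 and 17.9 to 18.9 FPKM in control (log2 fold change -0.10 ± 0.05, adjusted p = 0.197) and DLAT had 11.1 to 11.6 FPKM at 48 h of XD23 and 12.0 to 12.6 FPKM in control (log2 fold change -0.12 ± 0.04, adjusted p = 0.0503). Of the mitochondrial pyruvate carrier, MPC1 had 13.2 to 14.9 FPKM at 48 h of XD23 and 14.1 to 17.0 FPKM in control (log2 fold change -0.14 ± 0.09, adjusted p = 0.266) and MPC2 had 2.56 to 3.26 FPKM at 48 h of XD23 and 3.49 to 4.14 FPKM in control (log2 fold change -0.28 ± 0.12, adjusted p = 0.107). None of these 4 passed the test, although DLAT and MPC2 did not overlap with control. Without the third 24 h library, which enters only through the shared estimate of spread, 7 members rather than 2 were called lower at 48 h against control: SLC16A1, PDHA1, PFKM, PGAM1, DLAT, MPC2 and TALDO1. Calls over all genes grew too, to 2771 of 13657 lower, from 2080 with all libraries. Whether the gain among the members went beyond that over all genes was not tested.

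PGM1, which links glucose 6-phosphate to glycogen, rose, with 11.3, 11.9 and 12.7 FPKM at 48 h of XD23 and 9.53, 9.83 and 9.91 FPKM in control (log2 fold change 0.27 ± 0.06, adjusted p = 0.00699). None of the 3 pentose phosphate genes passed the test. PGD, an NADPH-forming dehydrogenase, had 52.0 to 55.1 FPKM at 48 h of XD23 and 51.1 to 55.1 FPKM in control (log2 fold change 0.03 ± 0.04, adjusted p = 0.612). TKT, transketolase, had 33.0 to 33.3 FPKM at 48 h of XD23 and 32.0 to 32.8 FPKM in control (log2 fold change 0.04 ± 0.03, adjusted p = 0.448). TALDO1, transaldolase, had 44.1 to 49.6 FPKM at 48 h of XD23 and 49.8 to 53.4 FPKM in control (log2 fold change -0.14 ± 0.06, adjusted p = 0.0877). The TKT range at 48 h lay above that of control and the TALDO1 range below it, by margins that did not pass the test.

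Within-library ratios of paralogs, which do not depend on the scaling of a library, were compared for 9 pairs with a two-sided exact permutation test, whose smallest possible p with 3 against 3 libraries is 0.1. For 5 pairs the 48 h and control ratios did not overlap (exact p = 0.1, 0.18 after Benjamini-Hochberg adjustment over the 9 pairs), so the threshold could not be reached. ENO2 over ENO1 was 0.0244 to 0.0279 at 48 h of XD23 and 0.0123 to 0.0132 in control. LDHB over LDHA was 0.0162 to 0.0193 at 48 h of XD23 and 0.0270 to 0.0325 in control. These enolase and lactate dehydrogenase ratios moved by 1.06 and -0.71 on the log2 scale. SLC2A3 over SLC2A1 was 1.59 to 1.86 at 48 h of XD23 and 1.20 to 1.36 in control, SLC16A3 over SLC16A1 was 0.0425 to 0.0452 at 48 h of XD23 and 0.0299 to 0.0306 in control, and ALDOC over ALDOA was 1.30 to 1.63 at 48 h of XD23 and 1.02 to 1.13 in control. ALDOA and LDHB share 53.5% and 33.4% of their exon bases with other genes. The size of the ratios with ALDOA or LDHB therefore cannot be read as the balance of the paralogs. The other pairs overlapped: HK2 over HK1 differed by -0.03 on the log2 scale (exact p = 1), PFKP over PFKL by -0.08 (exact p = 0.3), PFKFB4 over PFKFB3 by 0.15 (exact p = 0.3) and PDK1 over PDK3 by -0.05 (exact p = 0.6). At 24 h of XD23, SLC16A3 over SLC16A1 was 0.0307 to 0.0354, above the 0.0299 to 0.0306 of control (exact p = 0.1, adjusted 0.72), and the other 8 ratios overlapped with control.

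**Figure D3:**
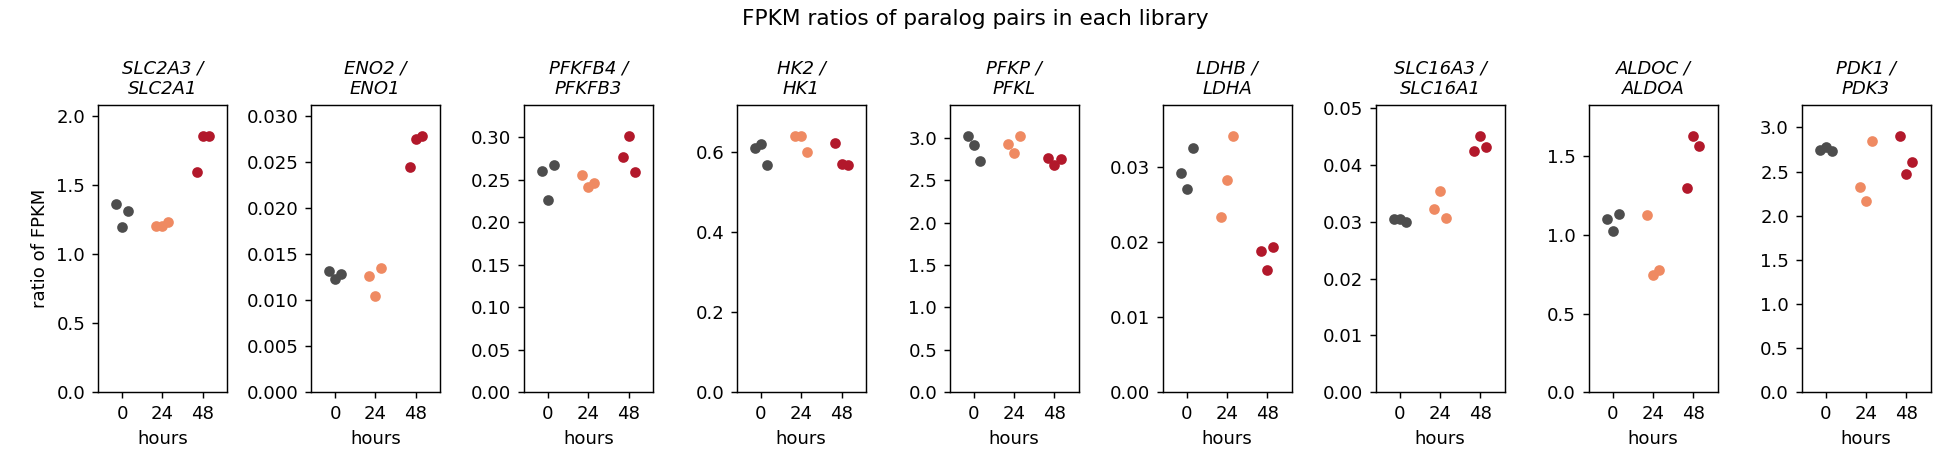
Ratio of FPKM between the 2 genes of each paralog pair (y axis, from 0) in each library at 0 h (control), 24 h and 48 h of XD23 (x axis). ENO2 over ENO1 reaches 0.0244 to 0.0279 at 48 h against 0.0123 to 0.0132 in control, while HK2 over HK1 overlaps between the groups.

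The members spanned a wide range of levels, from 982 FPKM for GAPDH to 1.06 FPKM for PDK2 in control. GAPDH took 34.9% and ENO1 19.6% of the summed FPKM of the members in control. The members' summed FPKM was 2979 ± 55.4 at 48 h of XD23 and 2815 ± 60.1 in control (SD, n = 3 each). Of the 15 members under 10 FPKM in control 10 were called higher at 48 h and 0 lower. Of the 14 between 10 and 100 FPKM 4 were called higher and 2 lower, and of the 7 above 100 FPKM 3 were called higher and 0 lower. Over all genes tested 13.3% were called higher and 15.2% lower. The shares of all genes within each level were not counted, so no link between level and call can be drawn for the members. In absolute terms the widest differences were 49.95 FPKM for LDHA and 45.9 FPKM for PGK1, higher at 48 h than in control, and PGAM1 and SLC16A1 had differences of -19.3 and -13.4 FPKM. The pseudocount of 1 shrinks fold changes of genes with low FPKM, so PFKFB4, at 2.38 times the control mean, reads 0.90 on that log2 scale.

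**Figure D4:**
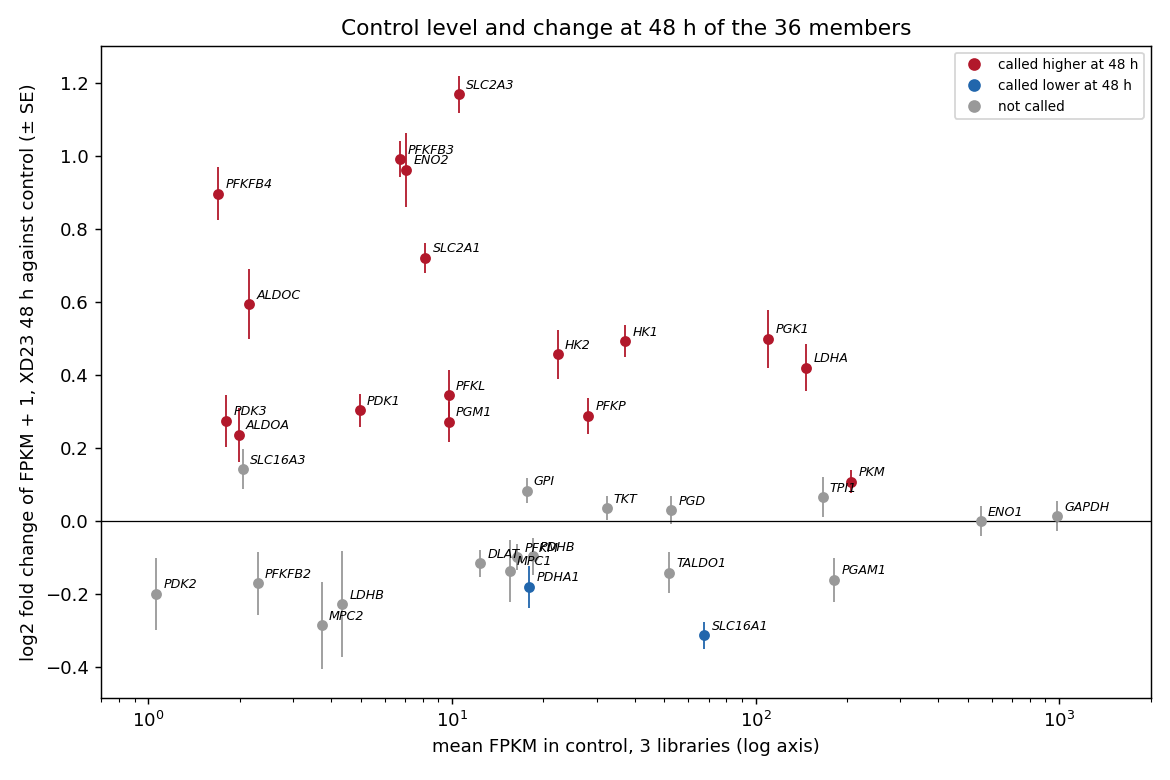
Mean FPKM in control (x axis, log scale) against the log2 fold change at 48 h (y axis, ± SE) for the 36 members, with red for called higher, blue for called lower and grey for not called. Fold changes above 0.5 all belong to members near or under 10 FPKM in control, and GAPDH and ENO1, the most abundant members, lie at 0.01 and 0.00.

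At 24 h of XD23 no member passed the test against control, in either direction, with limma on FPKM or with limma-voom on recovered fragments. At an unadjusted p under 0.05 there were 4 members, beside 7.43% of all genes. Over all genes 0% were called higher and 0.00732% (1 gene) lower. The members' log2 fold changes ran from -0.24 to 0.08 with a median of -0.04, and 28 of 36 were negative (77.8%, against 57.3% of all genes tested), though 18 of the 36 changed sign under at least 1 alternative. The 24 h values lay below all control values for 5 members (HK1, PFKFB3, ALDOC, PDK1 and TKT) and above for 1 (SLC16A3), where 8.38% and 4.81% of all genes did so; these 6 are named after their values were seen. HK1 had 30.8 to 34.6 FPKM at 24 h of XD23 and 36.9 to 37.6 FPKM in control (log2 fold change -0.18 ± 0.05, adjusted p = 0.464). PDK1 had 4.20 to 4.46 FPKM at 24 h of XD23 and 4.86 to 5.11 FPKM in control (-0.17 ± 0.04, adjusted p = 0.484). The 24 h group was the most variable, with a median coefficient of variation over members of 3.40% at 0 h, 6.46% at 24 h and 4.05% at 48 h.

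Between the XD23 times, 19 members were higher at 48 h than at 24 h and 4 were lower, where 16.0% and 16.3% of all genes were called. The median log2 fold change of the members was 0.11, beside -0.01 over all genes. Every 48 h value lay above every 24 h value for 19 members and below for 7, where 23.1% of all genes did each, and 24 members, beside 43.2% of all genes, had an unadjusted p under 0.05. This comparison shares its 48 h libraries with that against control. SLC2A3 had a log2 fold change of 1.27 (adjusted p = 4.57e-06), PFKFB3 1.09 (adjusted p = 7.22e-06), ENO2 1.02 (adjusted p = 0.000198) and PFKFB4 0.98 (adjusted p = 5.2e-05). ALDOC stood 0.83 higher (adjusted p = 0.000368) and HK1 0.68 higher (adjusted p = 3.36e-05). SLC16A1 had -0.30 (adjusted p = 0.000504), and PGAM1, MPC2 and TALDO1 had log2 fold changes of -0.20 (adjusted p = 0.035), -0.36 (adjusted p = 0.0446) and -0.17 (adjusted p = 0.0421). GPI, with 0.10 (adjusted p = 0.0458), and TKT, with 0.14 (adjusted p = 0.0122), were called higher here and not against control; the difference between the comparisons was not tested. The calls of GPI, MPC2, TALDO1 and PGAM1 were lost under 14 of 19, 13 of 18, 13 of 19 and 8 of 19 alternatives.

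Genes next to the module in metabolism were counted at 48 h of XD23 against control. Their lists were drawn up by name, but with earlier results of these data known. Over all genes tested 13.3% were called higher and 15.2% lower. Of 13 tested glycogen genes (17 listed) 8 rose and 3 fell, with a median log2 fold change of 0.19, beside -0.02 over all genes. PPP1R3B, which brings protein phosphatase to glycogen, averaged 6.43 ± 0.385 FPKM at 48 h of XD23 and 2.61 ± 0.138 FPKM in control (log2 fold change 1.04, adjusted p = 3.22e-05). The glycogen synthase GYS1 had 0.40 (adjusted p = 0.000774), PGM2L1, which makes glucose 1,6-bisphosphate, 0.57 (adjusted p = 0.00342) and PPP1R3E, another glycogen-targeting subunit, -0.45 (adjusted p = 0.00122). In the list of gluconeogenesis and NADH shuttle genes 7 of 9 tested (14 listed) fell and 0 rose, median -0.24. Among those that fell were GOT1 (-0.44, adjusted p = 0.000111), PCK2 (-0.37, adjusted p = 0.000316), GPD1L (-0.35, adjusted p = 0.00102) and SLC25A11 (-0.26, adjusted p = 0.00485). FBP1, FBP2 and PCK1 were too low to be tested, so most tested genes of this list belong to the shuttles. In the citric acid cycle 8 of 22 fell and 1 rose, median -0.12. IDH2, mitochondrial isocitrate dehydrogenase, rose (0.38, adjusted p = 0.00142), and SDHD (-0.32, adjusted p = 0.0131), IDH3B (-0.31, adjusted p = 0.00253) and SDHC (-0.28, adjusted p = 0.00755) fell.

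Of 15 tested regulators of glucose use 5 rose and 3 fell, median 0.09. As above, 13.3% of all genes tested were called higher and 15.2% lower. Counts in the short lists that follow cannot be told from those shares. TXNIP, an arrestin-like protein that curbs glucose uptake and is induced by glucose through MondoA, averaged 48.6 ± 3.98 FPKM at 48 h of XD23 and 21.1 ± 1.39 FPKM in control (log2 fold change 1.16, adjusted p = 2.87e-05). Its relative ARRDC4 had 0.71 (adjusted p = 0.000373), MLX, the partner of MondoA, 0.27 (adjusted p = 0.00522) and EPAS1, a hypoxia-inducible factor subunit, -0.29 (adjusted p = 0.0189). HIF1A, the other such subunit, added after its value was seen, did not pass the test (0.06, adjusted p = 0.22). MLXIP, the gene of MondoA itself, did not pass it either (0.083, adjusted p = 0.515), and MYC fell (-0.225, adjusted p = 0.0168). MLXIP and MYC were also added after their values were seen. Outside the module 1 of 5 tested glucose transporters rose (SLC2A13, 0.41, adjusted p = 0.00181) and 0 fell. Of 5 other glycolysis genes BPGM rose (0.30, adjusted p = 0.018) and HKDC1 fell (-0.77, adjusted p = 0.000532). Of 2 other lactate genes EMB rose (0.16, adjusted p = 0.0294) and BSG did not pass the test (-0.12, adjusted p = 0.164). Of 8 other pentose phosphate genes 0 rose and 3 fell, RBKS (-0.28, adjusted p = 0.0471), RPE (-0.25, adjusted p = 0.00299) and PRPS1 (-0.24, adjusted p = 0.00166). Of 6 other pyruvate entry genes DLD, the shared dehydrogenase subunit, fell (-0.41, adjusted p = 0.000493) and 0 rose. Of 11 hexosamine and polyol genes 1 rose, GFPT2 (0.42, adjusted p = 0.000144), and 3 fell, with UAP1 the lowest (-0.48, adjusted p = 0.000104). The medians of these last lists were 0.15 for transporters, -0.11 for glycolysis, 0.02 for lactate, -0.09 for pentose phosphate, -0.11 for pyruvate entry and -0.11 for hexosamine and polyol genes. No gene of the lists was called at 24 h of XD23 against control.

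Against 24 h of XD23, the 48 h counts in the same lists were 8 higher and 3 lower for glycogen genes, 0 and 6 for gluconeogenesis and shuttles, 2 and 7 for the citric acid cycle, 7 and 1 for regulators, 1 and 1 for other transporters, 1 and 2 for other glycolysis, 1 and 1 for other lactate, 1 and 3 for other pentose phosphate, 2 and 1 for other pyruvate entry, and 2 and 2 for hexosamine and polyol genes. The numbers tested were those given above, and over all genes tested 16.0% were called higher and 16.3% lower in this comparison. In lists with few genes tested, such counts cannot be told from those shares. The highest absolute changes in the first 4 lists were as follows. PPP1R3B had a log2 fold change of 1.15 (adjusted p = 1.48e-05), GOT1 -0.47 (adjusted p = 6.23e-05), IDH2 0.50 (adjusted p = 0.000311) and TXNIP 0.92 (adjusted p = 4.66e-05).

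**Figure D5:**
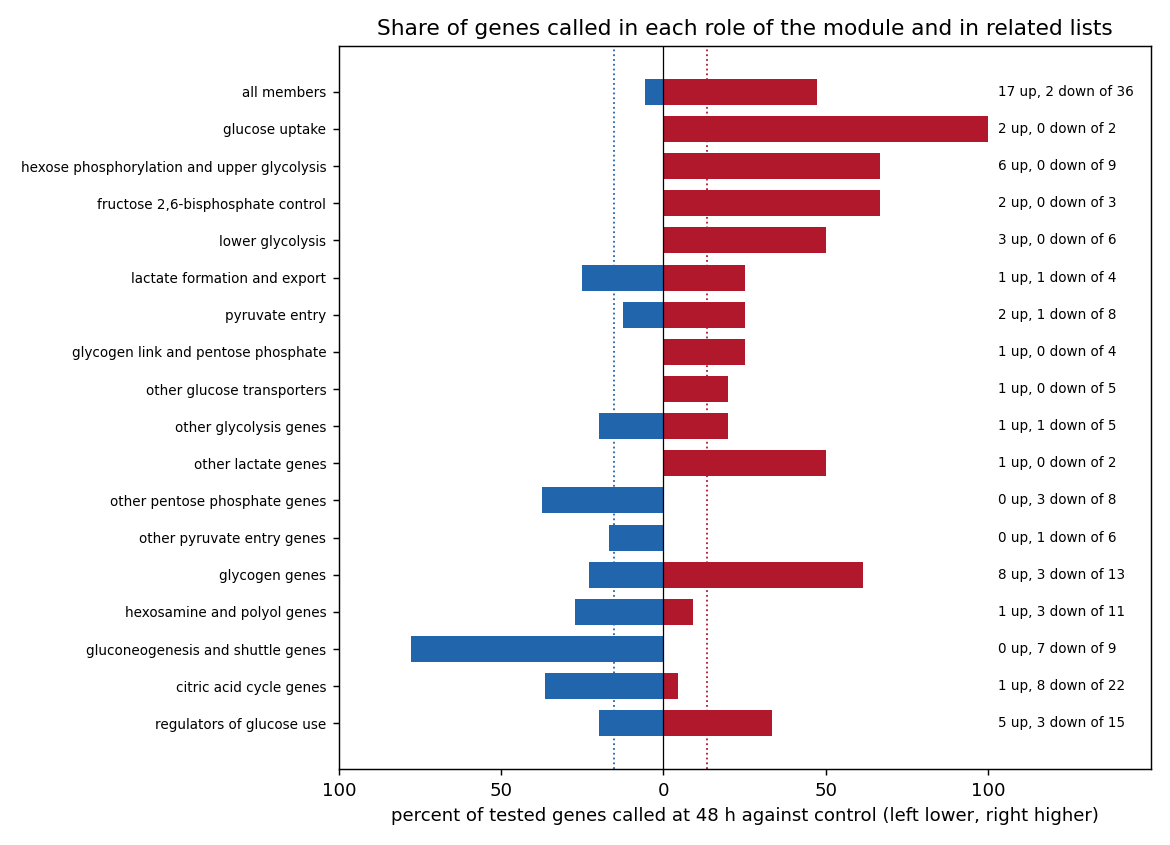
Percent of tested genes called lower (blue, left) and higher (red, right) at 48 h of XD23 against control, for the members by role and for related lists, with counts at the right; dotted lines are the shares over all genes tested, 15.2% lower and 13.3% higher. Bars that point right only are glucose uptake, upper glycolysis, fructose 2,6-bisphosphate control, lower glycolysis, glycogen link and pentose phosphate, other transporters and other lactate. Those that point left only are gluconeogenesis and shuttles, other pentose phosphate and other pyruvate entry.

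Several members share sequence with other genes, which limits how their FPKM can be read. In GENCODE 29 the shared part of the exon bases was 22.5% for MPC2, 21.3% for PDHA1, 14.2% for GAPDH and 10.1% for ALDOC, beside those given above. Pseudogenes named after members numbered 59 in the table, none above 10.1 FPKM. The 33 named after GAPDH summed to 1.24% of the FPKM of GAPDH at 48 h of XD23 and 1.46% in control, and the 3 named after TPI1 summed to 5.82% of the FPKM of TPI1 at 48 h of XD23 and 5.37% in control.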

How the data were processed

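Polyadenylated RNA of 9 libraries was analysed from 1 table of FPKM that the authors deposited, with replicates kept apart. Per the submitters' processing notes the tools were HISAT2, Subread, featureCounts and DESeq2, with hg38 as build; their versions, the strand setting and the gene annotation are not given in the sources read. The deposited FPKM are scaled to gene length and library depth. Whole fragments were recovered from the FPKM steps, to within 0.001 of a fragment, with GENCODE 29 exon lengths for 20926 genes and with the smallest length that made the values whole for 15884; the totals were 18341542 to 22901830 fragments.

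Genes with at least 1 FPKM in at least 3 libraries were tested on log2(FPKM + 1), which understates changes of low genes, with limma 3.58.1 in R 4.3.3: 1 mean per group over all 9 libraries, eBayes with a trend, 6 residual degrees of freedom, two-sided p with Benjamini-Hochberg adjustment over 13657 genes, called under 0.05. Errors beside log2 fold changes are SE and beside FPKM SD. The script was tested on simulated data. Values in every library are given for members called at 48 h against control with an absolute log2 fold change of at least 0.3. They are also given for the paralogs of those members. Of each related list up to 4 called genes with the highest absolute log2 fold change are named. HIF1A, MLXIP, MYC and BSG were added after their values were seen. No pair of libraries within a group agreed within counting noise. The 20 alternatives changed the pseudocount, filter, scaling, variance model, samples, replicate block, weights (limma-voom) and call rule, or left out a library. Members and lists were chosen with earlier results of these data known.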

Additional observations from a re-analysis of the deposited data

How the results depend on the processing

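No called member changed sign under any alternative. Among members not called, ENO1 and GAPDH changed sign at 48 h of XD23 against control, 18 members at 24 h against control, and ENO1, GAPDH and LDHB at 48 h against 24 h. Leaving aside the fold threshold, 13 of 19 member calls at 48 h against control held under all 19 alternatives, and those of PFKFB4 and ALDOC under the 18 that test them, since the filter at 5 FPKM removes both; ALDOA, PKM, PDK3 and PDHA1 lost theirs in some. Requiring an absolute log2 fold change over 0.5 left 301 genes and 6 members higher and 257 genes and 0 members lower. Members called lower, 2 as reported, numbered 1 without a filter, with median-of-ratios scaling, without a trend and with the replicate block, and 4 with the 2 groups alone. Leaving out 1 library in turn gave 1213 to 2361 genes higher, 1371 to 2771 lower, 14 to 17 members higher and 1 to 7 lower. At 24 h against control the genes called higher, 0 as reported, were 2 without a filter, 2 with quantile normalization and 0 to 1 with a library left out; those called lower, 1 as reported, were 2 with quantile normalization, 0 without a trend, 0 with the 2 groups alone, 0 with the replicate block, 0 with limma-voom and 0 to 1 with a library left out. No member was called at 24 h in any of these. For 48 h against 24 h the fold threshold left 418 genes and 9 members higher and 308 genes and 0 members lower; members lower, 4 as reported, were 1 without a filter, with median-of-ratios scaling, without a trend or with the 2 groups alone, 2 with quantile normalization and 2 with the replicate block. There, leaving out a library gave 1498 to 2213 genes higher, 1487 to 2381 lower, 16 to 20 members higher and 1 to 4 lower. The causes were not tested.

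The deviations of same-numbered libraries from their group means correlated at -0.0064 to 0.0825 between 48 h and control, -0.0571 to 0.0663 between 24 h and control, and 0.0201 to 0.2385 between 48 h and 24 h. Between 48 h and 24 h, libraries with different numbers correlated at -0.1919 to 0.1278. In no comparison did every same-numbered pair exceed 0.1, and the libraries were taken to share only a number. So few pairs cannot show that pairing was absent. With the replicate block 16 members were called higher and 1 lower at 48 h against control. With 3 libraries a group, a p that misses the threshold does not show that levels were alike.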
